A study of Homo sapiens with 6 samples.

Results

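The glutathione and peroxidase system was followed in H2122, a human lung cancer cell line, as 51 genes of the 59050 gene symbols counted. Members were matched by symbol, from a list chosen with earlier results of these data known: glutathione peroxidases (GPX1 to GPX8), cytosolic, mitochondrial and microsomal glutathione S-transferases (the GSTA, GSTK, GSTM, GSTO, GSTP, GSTT, GSTZ and MGST genes), peroxiredoxins (PRDX1 to PRDX6), gamma-glutamyltransferases (GGT genes), and GCLC, GCLM, GSS, GSR, GGCT, CHAC2, GLRX, GLRX2, CAT, SOD1 and SOD3. The knockout group held 3 libraries labelled SMARCA4 KO and the parental group 3 libraries of the parental line, and cells of both groups had received vehicle. SMARCA4 encodes an ATPase subunit of the SWI/SNF chromatin remodelling complex. How many knockout clones were used, and whether a group's libraries came from separate cultures, is not in the labels; p-values describe the spread among these libraries, which may be technical.

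Glutathione is a tripeptide made by glutamate-cysteine ligase and glutathione synthetase, and it is the main soluble thiol of the cell. Glutathione peroxidases spend it to reduce hydrogen peroxide and lipid hydroperoxides, transferases join it to electrophiles, glutathione reductase regenerates it with NADPH, and gamma-glutamyltransferases break it down outside the cell. Peroxiredoxins and catalase remove peroxides by routes of their own, and in lung cancer many of these genes are known targets of the transcription factor NRF2.

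Each library held 55120937 to 59917980 reads assigned to genes, so that 3 reads, taken as the limit of detection, were 0.0497 to 0.0544 CPM, a limit that covers counting error only. CPM are reads per 1000000 reads assigned to genes, after TMM scaling of the library sizes. The read count of SMARCA4 was 20.7, 19.3 and 24.9 CPM in the knockout libraries and 232, 214 and 335 CPM in the parental libraries (log2 fold change -3.59, adjusted p = 0.000176). Parental replicate 3 stood apart: its chi-square per degree of freedom against parental replicates 1 and 2 was 409 and 426, against 9.08 between those and 6.08 to 23 between knockout libraries. Results are therefore given for all 6 libraries and, as the 5-library fit, without parental replicate 3. Of 6 epithelial markers 5 fell and 0 rose, where 14.3% of all genes tested fell and 13.3% rose. Their summed level was 3160 to 3420 CPM in the knockout and 6930 to 7700 CPM in the parental libraries, mostly from KRT7, KRT8 and KRT18. The mean of CDH1 was 5.56 against 341 CPM and that of KRT19 31.8 against 1344 CPM, while KRT18 did not pass. Of 6 hepatocyte markers both tested ones fell, with sums of 1.85 to 2.12 CPM against 35.8 to 65.8 CPM and TTR at 0 reads in every library. Fibroblast markers, of which 2 rose and 1 fell, summed to 53.4 to 58.1 CPM against 39.3 to 110 CPM. Their means were 26.8 against 0.368 CPM for LUM, 5.1 against 0.158 CPM for COL3A1 and 23.5 against 64.5 CPM for COL1A1. Endothelial markers (1 rose, 0 fell) reached at most 1.77 CPM, haematopoietic markers (0 rose, 1 fell) at most 1.74 CPM with PTPRC at 0 reads, and erythroid markers at most 0.163 CPM with HBA2 at 0 reads. The part of these marker changes in the results was not tested.

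Of the 51 members, 40 had enough reads to be tested, and 14 of these differed between the groups at an adjusted p under 0.05 (edgeR's quasi-likelihood test, Benjamini-Hochberg over 17809 genes). CAT, GLRX2, GPX1, GPX4, GSTA4, GSTM2 and MGST3 rose in the knockout libraries, and GGT1, GPX2, GPX3, GSTM3, GSTP1, MGST2 and SOD3 fell. These 14 made up 35% of the tested members, beside 27.6% of all genes tested that passed; 17.5% of the members rose and 17.5% fell, against 13.3% and 14.3% of all genes. The median log2 fold change was 0.04 over the tested members and 0.02 over all genes tested. In 24 members, or 60%, the 2 groups did not overlap, against 49.8% of all genes. Rising and falling members were equal in number, and 7 of the 14 changes were at least 2-fold.

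In the 5-library fit, 34 of 41 tested members passed, 20 rising and 14 falling, beside 61.6% of all genes (30.8% in each direction). All 14 members that passed with 6 libraries passed in the same direction. The 5-library fit reuses the same libraries, so this is not independent support, and the share kept over all genes is not given here. Of those 14, GPX2, GPX3, GPX4, GGT1, GSTP1 and SOD3 remained past the threshold under all 13 alternative settings, and the other 8 did not under at least 1.

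**Figure D1:**
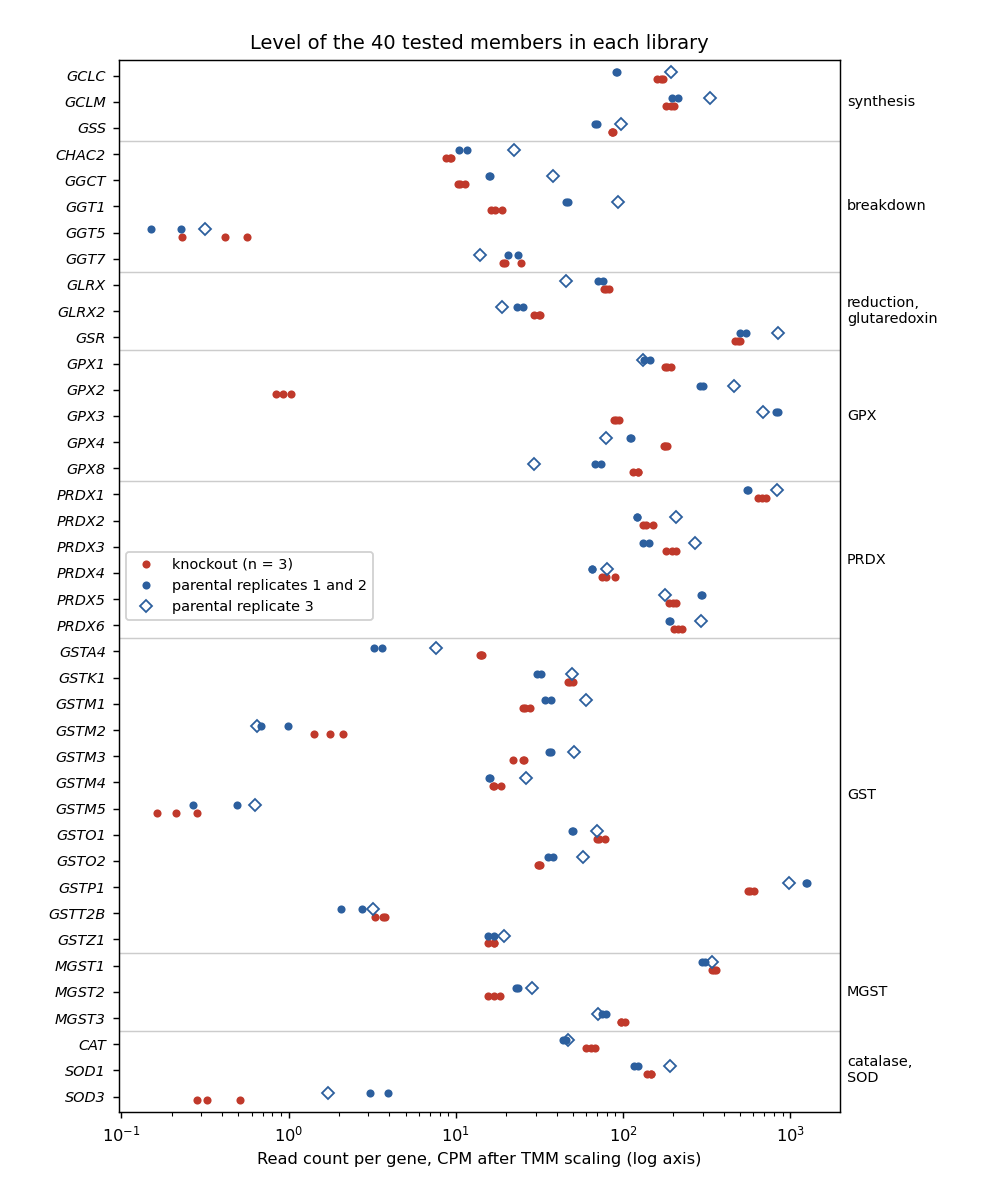
Read count of each of the 40 tested members in each library, in CPM after TMM scaling on a log axis, grouped by role; filled points are knockout libraries and parental replicates 1 and 2, and the open diamond is parental replicate 3. GPX2 lies near 1 CPM in the knockout libraries and at 289.9 to 459 CPM in the parental libraries, the widest gap among the members plotted.

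Promoter sequences were available for 39 of the 51 members (RefSeq, GRCh38.p14, 250 bases before to 50 bases after the start). They were searched on both strands for TGACNNNGC, the core of the antioxidant response element through which NRF2 acts, and for TGAGTCA, an AP-1 site that can overlap it. The core stood in 9 of the 39 member promoters (23.1%), in 13.3% of all 35116 promoters and in 14.3% of those of genes tested. It was present in 3 of 6 members that fell, 1 of 7 that rose, 5 of 18 that did not pass and 0 of 8 that were not tested. The AP-1 site was found in 1 member, GSTP1, and in 4.95% of all promoters. The 250 bases before the start are shown for the 4 members that passed and hold the core, since 3 of them fell and 1 rose; each reads 5′ to 3′ in the direction of the gene, with the core match in capitals.
GPX2: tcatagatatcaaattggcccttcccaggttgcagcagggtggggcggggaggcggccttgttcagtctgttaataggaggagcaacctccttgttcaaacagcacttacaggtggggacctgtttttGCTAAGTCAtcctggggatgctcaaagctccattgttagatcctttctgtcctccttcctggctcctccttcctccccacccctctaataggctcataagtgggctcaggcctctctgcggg
GGT1: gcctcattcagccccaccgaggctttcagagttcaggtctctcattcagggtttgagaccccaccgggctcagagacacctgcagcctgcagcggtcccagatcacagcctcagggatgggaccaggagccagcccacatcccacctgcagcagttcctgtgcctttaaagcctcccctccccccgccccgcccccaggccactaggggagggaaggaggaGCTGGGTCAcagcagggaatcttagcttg
GSTP1: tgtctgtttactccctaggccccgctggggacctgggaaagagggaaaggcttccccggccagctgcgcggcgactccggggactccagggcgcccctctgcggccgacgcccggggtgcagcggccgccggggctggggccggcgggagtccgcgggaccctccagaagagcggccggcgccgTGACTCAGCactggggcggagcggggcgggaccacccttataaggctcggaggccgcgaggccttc
GSTA4: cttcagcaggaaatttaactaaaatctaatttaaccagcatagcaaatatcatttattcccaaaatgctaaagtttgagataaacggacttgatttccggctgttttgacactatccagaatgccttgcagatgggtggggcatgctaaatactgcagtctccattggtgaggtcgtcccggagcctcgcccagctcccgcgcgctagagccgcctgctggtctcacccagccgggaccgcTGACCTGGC
These stretches lie at chr14:64942746-64942995 (minus strand), chr22:24602943-24603192 (plus strand), chr11:67583562-67583811 (plus strand) and chr6:52995285-52995534 (minus strand). The match begins 122 bases before the start of GPX2 and 29 before that of GGT1, both read on the opposite strand. It begins 66 bases before GSTP1 and 9 before GSTA4, on the gene's own strand. The GGT1 window lies wholly within the annotated gene (chr22:24583750-24629005), so the start used for GGT1 is an internal one. In GSTP1 the AP-1 site overlaps the core match. GENCODE 29 also holds transcripts that begin inside each of these windows. Matches were also present in GCLM, GSTM1, GSTM5, GSTO1 and MGST1. A match describes the letters and shows no binding, which was not measured.

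The glutathione peroxidases held the largest changes of the system. GPX2 is an epithelial selenoenzyme of the cytosol that reduces hydrogen peroxide, encoded at chr14:64939152-64942905 (hg38, minus strand). Its level was 1.03, 0.835 and 0.927 CPM in the knockout libraries, from 58, 46 and 56 reads, and 300, 289.9 and 459 CPM in the parental libraries. The groups were far apart, with parental replicate 3 the highest. The fall was 375-fold (log2 fold change -8.55, SE 0.29, adjusted p = 2.62e-05), and -8.35 in the 5-library fit. In bulk RNA, fewer cells with the transcript and less of it per cell cannot be told apart.

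GPX3 is the secreted selenoenzyme that acts outside the cell, at chr5:151020438-151028993 (plus strand). Its level was 94.6, 91.0 and 88.2 CPM in the knockout and 839.5, 823 and 687 CPM in the parental libraries. The groups did not overlap, and GPX3 stayed well above the limit of detection in every knockout library. It fell 8.58-fold (log2 fold change -3.10, SE 0.13, adjusted p = 4.73e-05), and by 3.24 on the log2 scale in the 5-library fit.

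The other expressed members of the family were higher in the knockout libraries. GPX4 reduces phospholipid hydroperoxides within membranes and is the enzyme that restrains ferroptosis, a death driven by lipid peroxidation; it lies at chr19:1103926-1106791. Its level was 182, 179 and 176 CPM in the knockout and 112, 109.6 and 78.6 CPM in the parental libraries, which do not overlap. GPX4 rose 1.79-fold (log2 fold change 0.84, SE 0.16, adjusted p = 0.00993), and by 0.64 in the 5-library fit. GPX1, the ubiquitous cytosolic selenoenzyme, measured 194, 183 and 177 CPM against 144, 134 and 131 CPM. It rose 1.35-fold (log2 fold change 0.44, SE 0.10, adjusted p = 0.0187; 0.36 in the 5-library fit). That call was lost when any knockout library, parental replicate 2 or the low-count filter was left out (adjusted p up to 0.0976), and 14.7% of the 50-base stretches of GPX1 recur in other transcripts, chiefly its pseudogene GPX1P1. GPX8, an enzyme of the endoplasmic reticulum without selenocysteine, was at 122, 122 and 115 CPM against 73.9, 67.9 and 29.4 CPM. Its groups did not overlap, but parental replicate 3 lay far below the other parental libraries and the difference did not pass (log2 fold change 1.06, SE 0.33, adjusted p = 0.0602); in the 5-library fit it rose by 0.70 (adjusted p = 9.99e-08). GPX5, GPX6 and GPX7 had 0 reads in every library, which allows up to 3 reads in each.

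Divided by exon length so that genes could be set side by side, the summed GPX level was 278 ± 9.55 CPM per kilobase in the knockout and 640 ± 21.1 in the parental libraries (SD, n = 3 each). The make-up of the family differed more than its sum. GPX2 and GPX3 together made up 75% ± 3.58 of the parental sum and 10.6% ± 0.0263 of the knockout sum. GPX1 went from 14.9% to 46.4%, GPX4 from 7.77% to 31.9% and GPX8 from 2.32% to 11.1% of the sum. With the longest transcript as the length, GPX3 held 45.8% of the parental and 13.0% of the knockout sum, and GPX1 12.2% and 40.1%. These are shares of RNA, not of enzyme activity.

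**Figure D2:**
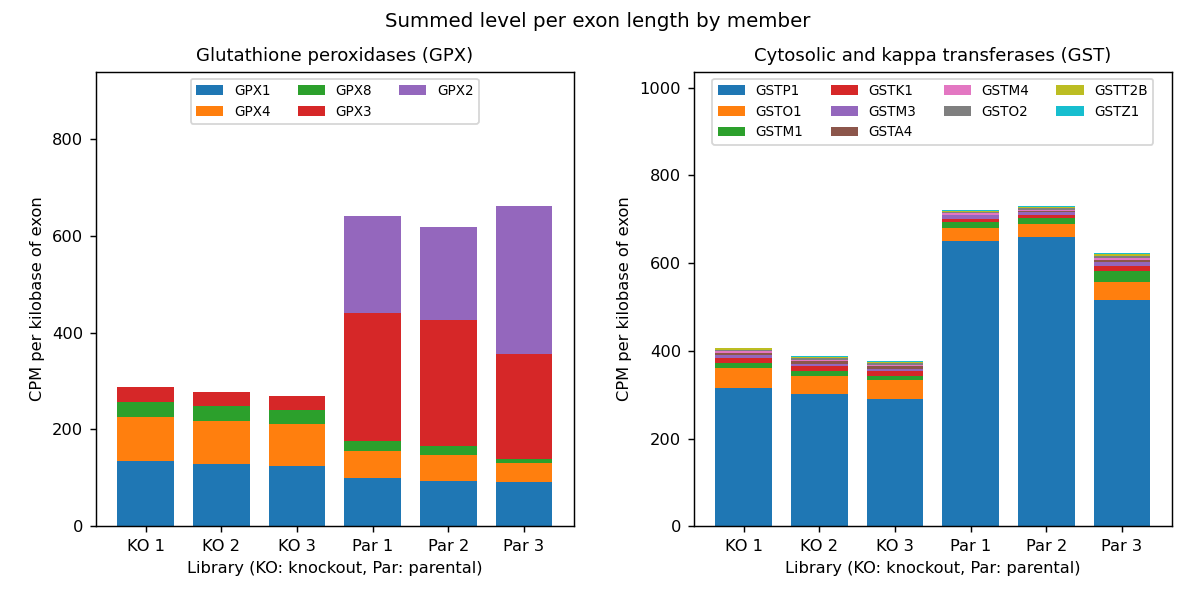
Level per kilobase of exon, in CPM per kilobase, of the expressed members of the GPX family (left) and of the most abundant GST genes (right), stacked for each knockout (KO) and parental (Par) library. GPX2 and GPX3 fill 72.6% to 79.1% of each parental GPX bar and 10.6% of each knockout bar, and GSTP1 fills most of every GST bar.

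Among the 18 GST genes, which leave out the microsomal ones, 12 were tested, of which 2 rose and 2 fell. Over all genes tested 13.3% rose and 14.3% fell. In the 5-library fit 5 of 13 rose and 4 fell, beside 30.8% of all genes each way. GSTP1, the pi-class enzyme and the most abundant transferase here, lies at chr11:67583595-67586656. Its level was 603, 575 and 556 CPM in the knockout and 1243, 1259 and 985 CPM in the parental libraries. All knockout libraries were below all parental ones, and GSTP1 fell 2.01-fold (log2 fold change -1.01, SE 0.14, adjusted p = 0.00308; -1.16 in the 5-library fit). It made up 87.7% ± 4.30 of the summed transferase level per kilobase in the parental and 77.3% ± 0.283 in the knockout libraries, as that sum went from 692 ± 59.6 to 391 ± 15.2 CPM per kilobase.

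GSTA4, an alpha-class enzyme known for conjugating the lipid peroxidation product 4-hydroxynonenal, showed the reverse. Its level was 14.0, 14.1 and 14.3 CPM in the knockout and 3.61, 3.23 and 7.6 CPM in the parental libraries. GSTA4 rose 2.94-fold (log2 fold change 1.56, SE 0.34, adjusted p = 0.0187), and by 2 in the 5-library fit. Leaving out parental replicate 1 or any knockout library lost the call, with an adjusted p of up to 0.0702. The other alpha-class genes were barely detected: GSTA1 had 0 reads in every knockout library against 8, 5 and 11, at least 7.92-fold lower against 3 reads over the knockout group, GSTA2 had 1 read in all and GSTA3 and GSTA5 had 0. None of these was tested.

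The mu-class genes sit in 1 cluster on chromosome 1 and share sequence. Reads that were not unique or were ambiguous between genes were left out of the counts, so these genes may be undercounted. GSTM3 measured 25.4, 25.2 and 21.9 CPM in the knockout and 36.3, 36.9 and 51.2 CPM in the parental libraries. It fell without overlap between the groups (log2 fold change -0.78, SE 0.17, adjusted p = 0.0172; -0.65 in the 5-library fit), and the call was lost without any 1 of the knockout libraries (up to 0.084). GSTM2 was low, at 1.41, 1.76 and 2.12 CPM against 0.683, 0.988 and 0.651 CPM. It rose (log2 fold change 1.19, SE 0.26, adjusted p = 0.0187; 1.03 in the 5-library fit), though not when knockout replicate 2 or 3 or parental replicate 1 was left out (up to 0.075), and 16.1% of its 50-base stretches recur elsewhere. GSTM1 was detected in all libraries, at 27.6, 26.0 and 25.1 CPM against 37.0, 34.0 and 60.4 CPM. Its difference did not pass (log2 fold change -0.74, adjusted p = 0.0606, and -0.48 with adjusted p = 1.8e-05 in the 5-library fit). GSTM1 shares 51.5% of its 50-base stretches, mostly with GSTM2, and 38.3% of its exon bases overlap GSTM2 and AC000032.1. GSTM4 was at 17.0, 16.6 and 18.5 CPM against 15.7, 15.9 and 26.2 CPM, where parental replicate 3 alone lay above the knockout range (log2 fold change -0.15, adjusted p = 0.667). GSTM5 stayed between 0.163 and 0.633 CPM (adjusted p = 0.101).

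The remaining transferases did not pass with 6 libraries. GSTO1, an omega-class enzyme with thioltransferase activity, was at 78.3, 71.8 and 70.2 CPM against 49.3, 50.4 and 70.2 CPM, so that parental replicate 3 came level with the lowest knockout library (log2 fold change 0.37, adjusted p = 0.141; 0.51, adjusted p = 3.93e-06, in the 5-library fit). Its neighbour GSTO2 had values of 31.3, 31.0 and 31.7 CPM against 38.3, 35.4 and 57.4 CPM (log2 fold change -0.48, adjusted p = 0.125; -0.28, adjusted p = 0.000881, in the 5-library fit). GSTK1, the kappa-class enzyme of mitochondria and peroxisomes, was at 48.2, 46.9 and 50.4 CPM against 30.6, 32.3 and 49.3 CPM. For GSTK1 parental replicate 3 lay within the knockout range (log2 fold change 0.37, adjusted p = 0.218, and 0.58 with adjusted p = 3.59e-06 in the 5-library fit). GSTZ1, the zeta-class enzyme of tyrosine breakdown, ran from 15.5 to 16.8 CPM in the knockout and at 15.5, 16.8 and 19.5 CPM in the parental libraries (log2 fold change -0.08, adjusted p = 0.689). The theta-class copies GSTT2B and GSTT2 share 90.9% and 81.1% of their 50-base stretches. Reads that were not unique were left out, so both may be undercounted. GSTT2B was at 3.30 to 3.79 CPM against 2.05 to 3.20 CPM (log2 fold change 0.43, adjusted p = 0.182; 0.53, adjusted p = 0.0103, in the 5-library fit), GSTT2 had 14, 8 and 12 reads against 4, 7 and 8, and GSTT4 had 0.

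All 3 microsomal transferases were expressed, and 1 rose and 1 fell, where 13.3% and 14.3% of all genes tested did. In the 5-library fit 2 of the 3 rose and 1 fell, beside 30.8% of all genes each way. MGST1, of the endoplasmic reticulum and outer mitochondrial membrane, was at 361, 350.0 and 339.8 CPM in the knockout and 307, 295 and 338 CPM in the parental libraries (log2 fold change 0.16, adjusted p = 0.304). Its knockout libraries were all slightly above the parental ones, but the difference did not pass with 6 libraries; in the 5-library fit MGST1 rose by 0.17 (adjusted p = 0.00349). MGST3 measured 103, 96.6 and 97.3 CPM against 75.2, 79.5 and 70.4 CPM and rose (log2 fold change 0.40, SE 0.09, adjusted p = 0.0235; 0.31 in the 5-library fit). MGST2, which can also act as a leukotriene C4 synthase, measured 18.3, 16.8 and 15.6 CPM against 23.4, 22.9 and 28.6 CPM and fell (log2 fold change -0.56, SE 0.14, adjusted p = 0.0252; -0.50 in the 5-library fit). Both calls were lost without any 1 of the knockout libraries or parental replicate 1, and that of MGST3 also without parental replicate 2 or the low-count filter (adjusted p up to 0.112 for MGST2 and 0.126 for MGST3).

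None of the 6 peroxiredoxins, thiol peroxidases that carry most of the cell's peroxide flux, passed with 6 libraries (0 of 6 at an unadjusted p under 0.05, and DESeq2 also called 0). Over all genes tested, 27.6% passed with 6 libraries and 61.6% in the 5-library fit. PRDX1 and PRDX2 are cytosolic, PRDX3 mitochondrial, PRDX4 of the endoplasmic reticulum, PRDX5 spread over several compartments, and PRDX6 a 1-cysteine enzyme that uses glutathione. PRDX1 was at 717, 681 and 642 CPM in the knockout and 554, 558 and 833 CPM in the parental libraries. PRDX2 was at 150.1, 137 and 131 CPM against 121, 121 and 208 CPM, and PRDX3 at 207, 195 and 181 CPM against 143, 131 and 268 CPM. PRDX6 was at 225, 213 and 201 CPM against 191, 188 and 293 CPM. In these 4 genes the knockout libraries lay above parental replicates 1 and 2 and below parental replicate 3. PRDX4 was at 89.6, 79.0 and 75.1 CPM against 65.1, 65.1 and 80.4 CPM. PRDX5 ran the other way, at 206, 199.5 and 187 CPM against 296, 292 and 178 CPM, with parental replicate 3 below the knockout range. In the 5-library fit PRDX1, PRDX2, PRDX3, PRDX4 and PRDX6 rose, by 0.12 to 0.45 on the log2 scale, and PRDX5 fell by 0.62 (adjusted p = 9.32e-08). The signs of PRDX2 and PRDX6 were opposite with 6 libraries (log2 fold change -0.11 and -0.07), and those of PRDX1 and PRDX3 turned when parental replicate 1 or 2 was left out. The summed PRDX level per kilobase was 924 ± 52.1 CPM per kilobase in the knockout and 968 ± 106 in the parental libraries (SD, n = 3 each).

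The synthesis genes did not pass with 6 libraries. GCLC, the catalytic subunit of glutamate-cysteine ligase, was at 169, 173 and 160.1 CPM in the knockout and 91.0, 91.4 and 193 CPM in the parental libraries. The knockout libraries lay above parental replicates 1 and 2 and below parental replicate 3 (log2 fold change 0.42, SE 0.31, adjusted p = 0.37; 0.83, adjusted p = 1.02e-08, in the 5-library fit). GCLM, its modifier subunit, was at 193, 201 and 180.5 CPM against 213, 196 and 330.3 CPM (log2 fold change -0.36, adjusted p = 0.26; -0.15, adjusted p = 0.0277, in the 5-library fit). GSS, the synthetase of the second step, was at 87.4, 85.7 and 86.0 CPM against 70.1, 68.2 and 97.4 CPM (log2 fold change 0.14, adjusted p = 0.566; 0.27, adjusted p = 0.000196, in the 5-library fit). The ligase subunits GCLC and GCLM thus had opposite signs in the 5-library fit, and neither passed with 6 libraries. The GCLM difference was small there, and its knockout values overlapped those of parental replicates 1 and 2.

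Among the breakdown genes 1 of 5 tested passed, beside 27.6% of all genes tested. GGT1 cleaves glutathione at the cell surface and lies at chr22:24583750-24629005. Its level was 19.0, 16.2 and 17.2 CPM in the knockout and 47.0, 45.3 and 93.3 CPM in the parental libraries, which do not overlap. GGT1 fell 3.54-fold (log2 fold change -1.83, SE 0.31, adjusted p = 0.00703, and -1.45 in the 5-library fit). Of its 50-base stretches 35.9% recur in other transcripts, chiefly GGTLC2. Reads that were not unique were left out, so GGT1 may be undercounted. GGCT, the cyclotransferase that acts on gamma-glutamyl peptides, was at 11.4, 10.6 and 10.3 CPM against 15.8, 16 and 38.1 CPM. The groups did not overlap, yet the difference did not pass (log2 fold change -1.11, adjusted p = 0.0707; -0.61, adjusted p = 1.21e-05, in the 5-library fit), and 27.6% of its exon bases overlap another gene, AC005154.5. CHAC2, which degrades glutathione in the cytosol, was at 9.32, 9.22 and 8.71 CPM against 11.6, 10.4 and 22.3 CPM (log2 fold change -0.70, adjusted p = 0.145; -0.32, adjusted p = 0.00422, in the 5-library fit). GGT7 was at 19.8, 19.1 and 24.4 CPM against 20.5, 23.5 and 13.9 CPM (log2 fold change 0.13, and -0.11 in the 5-library fit, neither past the threshold). GGT5 was at 0.151 to 0.563 CPM in all libraries (adjusted p = 0.229). GGT6, not tested, had 0, 2 and 2 knockout reads against 9, 16 and 53 parental reads, and GGT2 had 4, 6 and 4 against 7, 9 and 1.

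Of the reduction genes, GSR encodes glutathione reductase and was at 498, 487 and 466 CPM in the knockout and 542, 503 and 850.1 CPM in the parental libraries. The groups did not overlap, with a narrow gap to parental replicates 1 and 2 (log2 fold change -0.38, adjusted p = 0.246; -0.16, adjusted p = 0.00824, in the 5-library fit). GLRX, the cytosolic glutaredoxin, was at 82.9, 78.9 and 77.3 CPM against 70.6, 75.7 and 45.6 CPM (log2 fold change 0.32, adjusted p = 0.29). In the 5-library fit its log2 fold change was 0.07 (adjusted p = 0.221). GLRX2, a mainly mitochondrial glutaredoxin, was at 31.6, 31.9 and 29.4 CPM against 25.3, 23.1 and 18.9 CPM. It rose at the margin (log2 fold change 0.46, SE 0.14, adjusted p = 0.0484; 0.31 in the 5-library fit). The call was lost without any 1 of the knockout libraries, parental replicate 1 or 2 or the low-count filter, with RLE scaling and with DESeq2, at an adjusted p of up to 0.161.

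Among catalase and the superoxide dismutases, CAT rose and SOD3 fell. CAT, the peroxisomal enzyme that splits hydrogen peroxide, was at 68.1, 64.6 and 60.0 CPM in the knockout and 45.4, 44.0 and 47.0 CPM in the parental libraries. It rose 1.41-fold without overlap (log2 fold change 0.50, SE 0.09, adjusted p = 0.0107; 0.47 in the 5-library fit), a call lost without knockout replicate 1 or 2 (adjusted p up to 0.0668). SOD3, the secreted dismutase, at chr4:24789912-24800842, was low throughout, with 29, 18 and 17 reads against 225, 183 and 98 in the parental libraries. That is 0.513, 0.327 and 0.282 CPM against 3.94, 3.06 and 1.72 CPM, a 7.76-fold fall (log2 fold change -2.96, SE 0.41, adjusted p = 0.00322; -3.27 in the 5-library fit). SOD1, the cytosolic copper-zinc dismutase, was at 147, 147 and 139 CPM against 123, 117 and 189.6 CPM (log2 fold change 0.01, adjusted p = 0.978), and its sign differed with RLE scaling (-0.04). In the 5-library fit SOD1 rose by 0.21 (adjusted p = 0.00109).

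**Figure D3:**
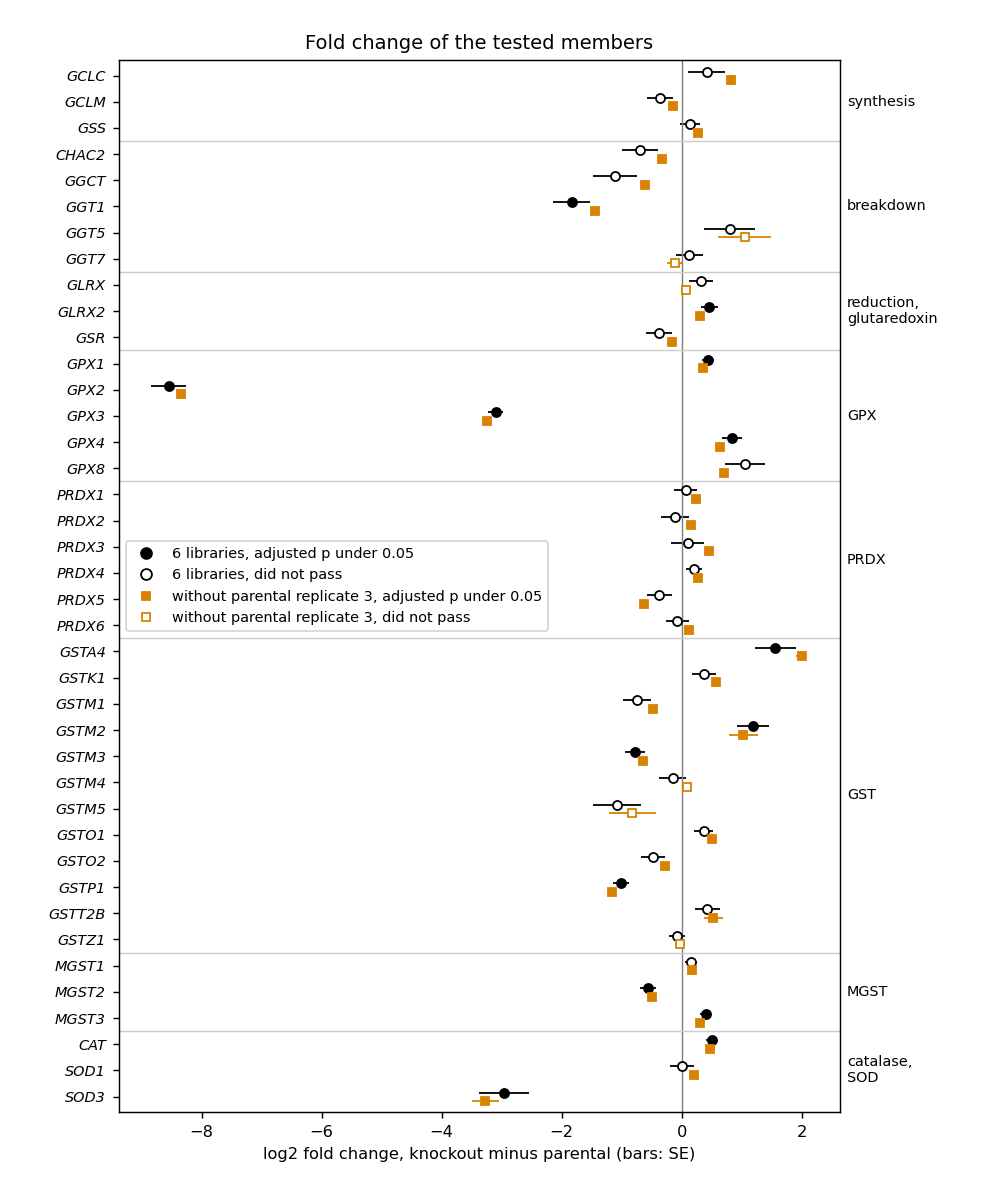
Log2 fold change, knockout minus parental, of the 40 tested members with its standard error, for all 6 libraries (circles) and without parental replicate 3 (squares); filled symbols have an adjusted p under 0.05. Most squares are filled where circles are open, as for GPX8 (1.06 with 6 libraries, 0.70 without parental replicate 3) and the 6 PRDX genes.

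Parental replicate 3 differed from the other parental libraries in these genes more often upwards than downwards. It was at least 1.5-fold above the mean of parental replicates 1 and 2 in 18 of 40 tested members (45%) and in 22.9% of all genes tested. It was at least 1.5-fold below that mean in 5 members (12.5%) and in 23.5% of all genes. The median ratio was 1.41 over the members and 0.995 over all genes. Members at the upper end included GGCT (ratio 2.40), GSTA4 (2.22), GCLC (2.12), CHAC2 (2.03) and GGT1 (2.02), and at the lower end GPX8 (0.415) and SOD3 (0.492). In 36 members (90%, beside 74.2% of all genes) the knockout libraries did not overlap parental replicates 1 and 2. In 12 of those 36 (33.3%, beside 32.9% of such genes among all) parental replicate 3 reached or passed the knockout range, a share near that of all genes. The titles of the parental libraries carry numbers, different in each, while those of the knockout libraries all carry the same number. The meaning of these numbers is not stated. Whether the knockout libraries share a source that the parental ones do not, and what sets parental replicate 3 apart, cannot be told from the labels.

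**Figure D4:**
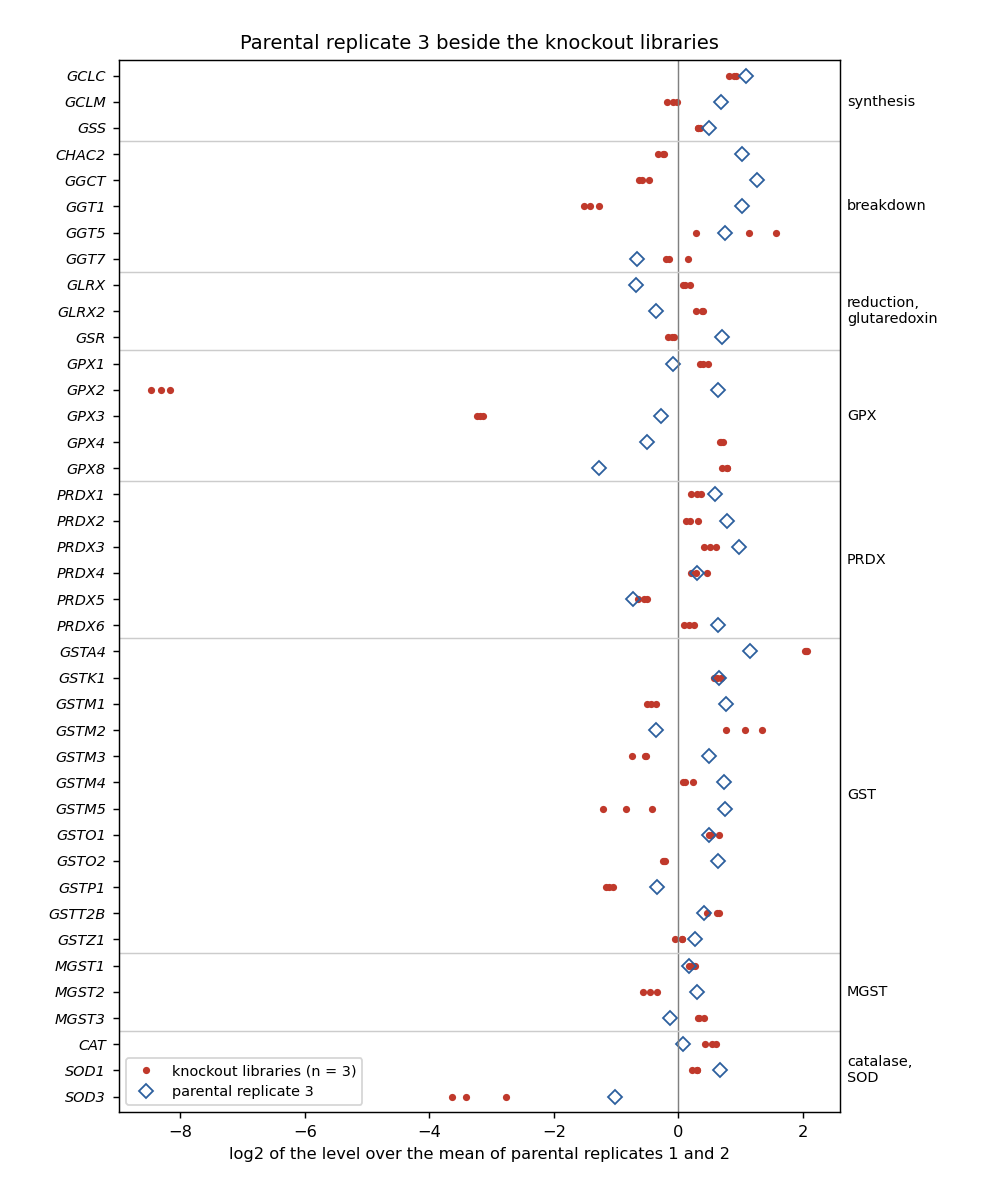
For each tested member, the log2 ratio of parental replicate 3 (diamond) and of each knockout library (points) to the mean of parental replicates 1 and 2, drawn as the line at 0. The diamond lies at least 1.5-fold above that mean for 18 of the 40 members and at least 1.5-fold below it for 5.

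The order of levels per kilobase of exon changed at the top. In the parental libraries GSTP1 (608 CPM per kilobase), PRDX1 (426), PRDX5 (286), GPX3 (248) and GPX2 (233) led; GSTP1 and PRDX1 overlapped in range, as did PRDX5, GPX3 and GPX2. In the knockout libraries the leaders were PRDX1 (447), GSTP1 (302), PRDX5 (221), GPX1 (129) and GSR (129), of which only GPX1 and GSR overlapped with each other. GPX2 was at rank 5 of the 40 tested members in the parental libraries and at rank 36 in the knockout, and GPX3 went from rank 4 to rank 16. This order depends on the length used. By longest transcript, parental GPX3 (446 CPM per kilobase) and GPX2 (308) stood above PRDX5 (286). In the knockout libraries MGST1 (163) and GPX1 (160) then stood above GSR (152). The knockout level of MGST1 was 47.1 CPM per kilobase of all exons.

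Genes beside the members that passed were also read. Of 50 places for the 2 nearest tested protein-coding genes on each side, members left out, 16 held a gene that passed (32%, beside 27.6% of all genes), 8 of them in the direction of the member. CHURC1, which overlaps GPX2, was at a log2 fold change of 0.55 (adjusted p = 0.201), and RAB15, 2.91 kb away, fell by 0.70. TNIP1, 0.952 kb from GPX3, was at -0.19 (adjusted p = 0.311), and SBNO2, 0.845 kb from GPX4, at -0.07 (adjusted p = 0.591).

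Of 92 genes in 7 lists of connected pathways, 83 were tested, of which 10 rose (12%, beside 13.3% of all genes) and 9 fell (10.8%, beside 14.3%). In the 5-library fit 34 of 84 rose (40.5%, beside 30.8%) and 27 fell (32.1%, beside 30.8%). In the thioredoxin system, which reduces the peroxiredoxins, 4 of 12 fell and 0 rose by edgeR (0 rising also at an unadjusted p under 0.05 and by DESeq2); in the 5-library fit 5 fell and 3 rose, and leaving out any 1 of the other libraries left 1 to 3 falling. TXNIP, which binds and inhibits thioredoxin and is named here after its values were seen, was at 128, 124 and 124 CPM against 551, 536 and 151 CPM. It fell by 1.72 on the log2 scale (adjusted p = 0.0396; -2.17 in the 5-library fit), a call lost without any 1 of the other 5 libraries or the low-count filter and with limma-voom (adjusted p up to 0.134). NXN fell by 1.11, thioredoxin itself (TXN) by 0.53 and SESN3 by 0.94 on the log2 scale, while thioredoxin reductase TXNRD1 was at 2227, 2195 and 2058 CPM against 2063, 2055 and 1906 CPM (log2 fold change 0.11, adjusted p = 0.537). The falls of TXN and SESN3 were lost without knockout replicate 2 or 3, that of TXN also without knockout replicate 1 and that of SESN3 without parental replicate 1 (adjusted p up to 0.0987 and 0.0728).

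Of 9 tested genes for conjugate export and the mercapturate steps, 3 rose (33.3%) and 1 fell (11.1%), beside 13.3% and 14.3% of all genes. In the 5-library fit 6 of 10 rose (60%) and 3 fell (30%), beside 30.8% of all genes each way. The conjugate pump ABCC1 was at 914, 908 and 879 CPM against 545, 514 and 339 CPM (log2 fold change 0.95, adjusted p = 0.0148), and ABCC3 at 624, 659.8 and 784 CPM against 404, 416 and 253 CPM (log2 fold change 0.95, adjusted p = 0.0232). The groups did not overlap for either pump, though both calls were lost without any 1 of the knockout libraries (adjusted p up to 0.0605 and 0.0893). ACY3 fell by 2.53 on the log2 scale at a level under 0.6 CPM.

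In the list of NRF2 control, 1 of 12 rose (8.33%) and 0 fell by edgeR, beside 13.3% and 14.3% of all genes. At an unadjusted p under 0.05, 2 were lower, and DESeq2 called 2 falling. In the 5-library fit 2 rose (16.7%) and 7 fell (58.3%), beside 30.8% of all genes each way. The gene that rose with 6 libraries was the small Maf partner MAFK, at 515, 508 and 593 CPM against 150.1, 170.2 and 169.6 CPM (log2 fold change 1.72, SE 0.12, adjusted p = 0.000239). NFE2L2, which encodes NRF2, was at 171, 169.6 and 164 CPM against 167, 157 and 129 CPM (log2 fold change 0.16, adjusted p = 0.389; 0.01 in the 5-library fit). KEAP1, its repressor, was at 93.6, 87.6 and 84.9 CPM against 84.3, 86.0 and 118 CPM (log2 fold change -0.11, adjusted p = 0.628; 0.01 in the 5-library fit). Neither difference passed with 6 or with 5 libraries.

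In the list of genes connected to cystine and cysteine supply, 0 of 9 rose by edgeR (1 at an unadjusted p under 0.05, 1 by DESeq2). There 1 fell (11.1%), where 13.3% of all genes rose and 14.3% fell. In the 5-library fit 3 rose (33.3%) and 4 fell (44.4%), beside 30.8% of all genes each way. The gene that fell with 6 libraries was the glutaminase gene GLS2 (log2 fold change -1.88, adjusted p = 0.00429), 82.8% of whose exon bases overlap other genes. The cystine importer SLC7A11 was at 1118, 1186 and 982 CPM in the knockout and 1792, 1501 and 725 CPM in the parental libraries, which overlap through parental replicate 3 (log2 fold change -0.29, adjusted p = 0.558; -0.64, adjusted p = 0.000741, in the 5-library fit). In the list of genes connected to NADPH supply, 2 of 15 rose (MTHFD1L by 0.72 and ME3 by 0.74). There 2 fell, among them ME1 by 0.77 on the log2 scale. That was 13.3% each way, near the 13.3% and 14.3% of all genes. In the 5-library fit 8 rose (53.3%) and 3 fell (20%), beside 30.8% of all genes each way. The calls of ME3 and ME1 were lost without any 1 of the knockout libraries or parental replicate 1, and that of ME3 also without parental replicate 2 (adjusted p up to 0.0755 and 0.104). For selenoprotein synthesis, on which GPX1 to GPX4 depend, 1 of 8 rose (12.5%, beside 13.3% of all genes), PSTK by 0.52 (adjusted p = 0.0406). By edgeR 0 fell (0 also at an unadjusted p under 0.05 and by DESeq2). In the 5-library fit 3 rose (37.5%) and 1 fell (12.5%), beside 30.8% of all genes each way. The PSTK call was lost with RLE scaling, without the low-count filter and without each library other than parental replicate 3 (up to 0.162).

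Among 18 other tested genes of glutathione, superoxide and peroxide handling, 3 rose (16.7%) and 1 fell (5.56%), beside 13.3% and 14.3% of all genes. In the 5-library fit 9 rose (50%) and 4 fell (22.2%), beside 30.8% of all genes each way. SOD2, the mitochondrial dismutase, was at 400.5, 390.2 and 379 CPM against 169, 173 and 147 CPM and rose (log2 fold change 1.26, SE 0.11, adjusted p = 0.000515), where SOD3 fell. CYBA, a subunit of the NADPH oxidase, was at 77.5, 68.3 and 75.1 CPM against 178, 162 and 172 CPM and fell (log2 fold change -1.21, adjusted p = 0.000434). NQO1, a quinone reductase known as an NRF2 target, was at 1850.4, 1861 and 1763 CPM against 1120.4, 1144 and 1360.1 CPM and rose (log2 fold change 0.60, adjusted p = 0.0166), though not when any library other than parental replicate 3 was left out (up to 0.0872).

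**Figure D5:**
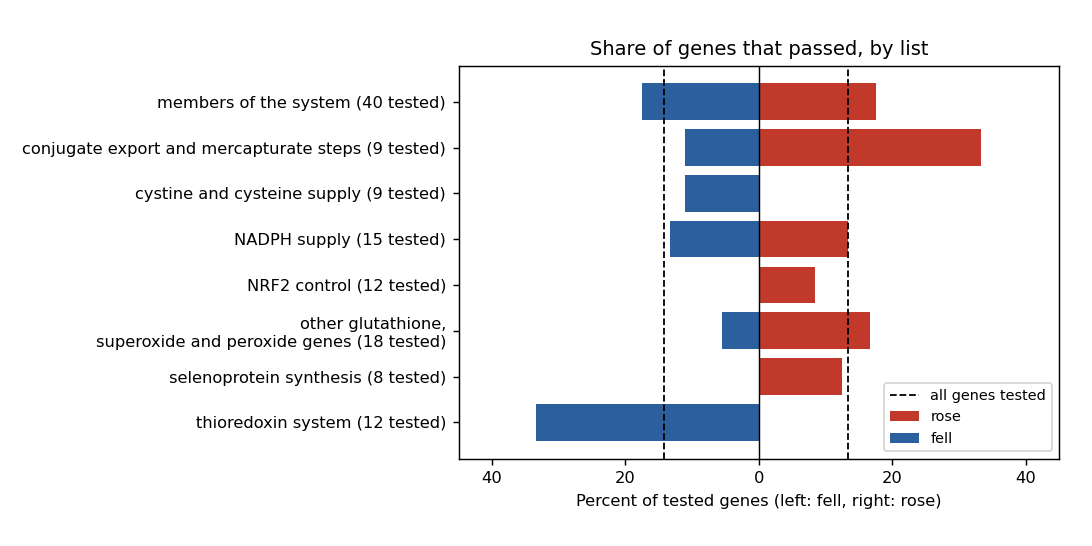
Percent of tested genes that fell (left) and rose (right) among the members and in each of the 7 pathway lists, with all genes tested as dashed lines at 14.3% and 13.3%. The members reach 17.5% on both sides, the thioredoxin system has a bar on the left only, and each list holds 18 tested genes or fewer.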

How the data were processed

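RNA-seq of 6 libraries was analysed from raw read counts per gene, which the authors deposited as whole numbers, 1 file per library. Per the submitters' processing notes, reads were processed with HTSeq 0.11.0 and TopHat2 2.1.1 on hg38. No source used here gives the annotation release, filters or strand setting, so reads of overlapping antisense genes may not be separated. The 5 unassigned read classes (13.8% to 15.3% of reads, about 5% not unique) were left out. Without molecular identifiers, reads are not independent molecules.

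After filterByExpr and TMM scaling, counts were tested with edgeR 4.0.16 in R 4.3.3 (robust quasi-likelihood F-test, two-sided, group as the only term; standard error from the F value), with Benjamini-Hochberg adjustment over 17809 genes and a threshold of 0.05. The fit was tested on simulated data. Alternatives were DESeq2 1.42.0 and limma-voom (limma 3.58.1) as other tests, upper-quartile or RLE factors, a filter of 1 CPM in 3 libraries or none, the replicate number as a block, and leaving out each library. Lengths, positions and shared 50-base stretches are from GENCODE 29 (GRCh38), promoters from RefSeq (GRCh38.p14); all 51 members matched GENCODE. Values per library are given for members that passed or reached 10 CPM in either group, for GSTZ1 in the knockout as a range. From each list up to 3 passing genes of smallest adjusted p are named, some of them by fold change only. SMARCA4, NFE2L2, KEAP1, SLC7A11, SOD2 and TXNRD1 are named with values per library in any case. PGLS, a list gene, was not analysed here. Members and lists were chosen with earlier results of these data known.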

Additional observations from a re-analysis of the deposited data

How the results depend on the processing

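Leaving out 1 library moved the number of members rising from 7 to between 1 and 20, and of members falling from 7 to between 5 and 14. For the pathway lists the range was 3 to 34 rising (10 with 6 libraries) and 4 to 27 falling (9), and for all genes 1221 to 5665 rising (2365) and 1471 to 5660 falling (2547). The upper end of each range is without parental replicate 3, and leaving out a knockout library gave 1 or 2 members rising and 5 falling. Without the low-count filter 4 members rose and 11 fell. Same-numbered knockout and parental libraries did not deviate together (correlations of -0.05, 0 and -0.07), so the numbers do not pair the libraries; with the replicate number as a block, 2 members rose and 5 fell, 5 list genes rose and 4 fell, and 1378 genes rose and 1662 fell. The members whose calls the block lost were CAT, GLRX2, GPX1, GSTM2, GSTM3, MGST2 and MGST3. All other scaling, filter and tool alternatives left the members' counts within 1.5 times.

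Signs turned in genes with small differences. With 1 library left out, log2 fold changes ranged from -0.11 to 0.29 for GGT7, -0.28 to 0.09 for GSTM4, -0.25 to 0.15 for PRDX2, -0.19 to 0.12 for PRDX6 and -0.20 to 0.01 for KEAP1, turning without parental replicate 3. They ranged from -0.04 to 0.24 for PRDX1, -0.09 to 0.45 for PRDX3 and -0.12 to 0.21 for SOD1, turning without parental replicate 1 or 2. SOD1 was also at -0.04 with RLE factors, -0.05 without the filter and -0.04 with DESeq2. The cause of these changes was not tested. With 3 libraries a group, GPX8, GGCT and GSTM5 missed the threshold at more than 2-fold. In the 5-library fit GPX8 and GGCT passed, and GSTM5 did not (log2 fold change -0.82, adjusted p = 0.0898). Of the 11 members not tested, 6 had 0 reads in every library, and the others had too few reads to be tested.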
